A study of Rattus norvegicus with 12 samples.

Results

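A set of 10 hypoxia and glycolysis genes was followed in rat lumbar cord (L3-5) after spinal cord injury (SCI): Slc2a1, Slc2a3, Hk2, Pfkfb3, Pgk1, Ldha, Pdk1, Slc16a3, Vegfa and Adm. They were taken by gene name from a deposited gene table of 23526 genes, in which each of the 10 had 1 row. RNA of lumbar tissue was sequenced from sham samples at day 0 and from samples taken 3, 7 and 14 days after SCI, and each of the 4 groups holds 3 samples. The species is Rattus norvegicus. The labels give no strain, age, level or kind of injury. All sham samples are from day 0, so time after surgery and injury cannot be told apart at the later days. Whether the 3 samples of a group are separate animals is not stated, and p-values then measure only how far these samples spread, which may be of technical origin. Library totals were 63.0 to 79.1 in units of 1e+06 counts. Levels are given as CPM (counts per 1e+06 counts of a library), and as the authors' FPKM, a value per length, where genes are set against each other.

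Cells short of oxygen stabilise the HIF transcription factors, which raise glucose uptake, glycolysis and lactate export and the secretion of factors that act on vessels. Slc2a1 and Slc2a3 encode the glucose transporters GLUT1, known from brain endothelium and astrocytes, and GLUT3, known from neurons. Hk2 encodes a hexokinase, which traps glucose in the cell, Pfkfb3 makes the allosteric activator of phosphofructokinase, and Pgk1 encodes the phosphoglycerate kinase that yields ATP. Ldha encodes the lactate dehydrogenase subunit that favours lactate, Pdk1 the kinase that switches off pyruvate dehydrogenase, and Slc16a3 the lactate exporter MCT4. Vegfa is the vascular endothelial growth factor, and Adm is adrenomedullin, a peptide that widens vessels. Several of these genes are also controlled by factors other than HIF, such as inflammatory signals.

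HIF binds a short core, ACGTG or GCGTG, and the window from 250 bases before to 50 bases after the gene start (RefSeq, GRCr8) was searched for it on both strands. A window was given for 8 of the 10 genes. At least 1 match was present in 4 of these 8 genes, against 41.6% of all 33469 RefSeq promoters of the same length. The count was 6 in Ldha, 4 in Slc2a1, 4 in Pdk1 and 2 in Pfkfb3, and 0 in Hk2, Slc16a3, Adm and both windows of Vegfa. A CACGTG (E-box) holds ACGTG on each strand and counts as 2 overlapping matches. The windows printed are those of the 3 genes called higher at day 3 and of Pdk1, which holds 4 matches and was not called. They are Ldha, at chr1:106507842-106508141, plus strand, Slc2a1, at chr5:138002272-138002571, plus strand, Slc16a3, at chr10:106712078-106712377, plus strand, and Pdk1, at chr3:77113264-77113563, plus strand. Capitals mark the core on either strand, on the minus strand as CACGT or CACGC.
Ldha: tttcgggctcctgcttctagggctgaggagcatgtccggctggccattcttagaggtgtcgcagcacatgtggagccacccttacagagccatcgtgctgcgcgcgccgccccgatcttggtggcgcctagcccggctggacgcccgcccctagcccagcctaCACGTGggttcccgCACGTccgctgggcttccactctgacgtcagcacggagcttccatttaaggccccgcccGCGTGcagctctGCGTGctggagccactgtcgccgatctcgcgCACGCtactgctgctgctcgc
Slc2a1: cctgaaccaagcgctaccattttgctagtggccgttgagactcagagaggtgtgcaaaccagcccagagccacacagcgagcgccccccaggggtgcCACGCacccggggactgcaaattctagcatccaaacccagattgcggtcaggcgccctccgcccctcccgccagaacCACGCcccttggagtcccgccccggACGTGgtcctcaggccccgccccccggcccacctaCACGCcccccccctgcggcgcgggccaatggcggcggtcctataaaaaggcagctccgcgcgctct
Slc16a3: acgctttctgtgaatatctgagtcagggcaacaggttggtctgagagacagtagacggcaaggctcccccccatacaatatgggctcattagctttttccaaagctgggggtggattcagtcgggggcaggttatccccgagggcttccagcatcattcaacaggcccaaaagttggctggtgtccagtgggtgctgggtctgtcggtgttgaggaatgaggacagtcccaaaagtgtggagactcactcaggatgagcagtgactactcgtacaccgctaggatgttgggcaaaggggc
Pdk1: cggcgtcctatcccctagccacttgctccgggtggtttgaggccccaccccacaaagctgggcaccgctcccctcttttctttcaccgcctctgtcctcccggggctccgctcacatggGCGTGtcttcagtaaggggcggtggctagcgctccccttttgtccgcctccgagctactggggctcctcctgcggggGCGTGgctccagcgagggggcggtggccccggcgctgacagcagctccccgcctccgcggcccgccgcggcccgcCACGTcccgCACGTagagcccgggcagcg
The windows of Slc16a3 and Ldha, both of genes called at day 3, thus held 0 and 6 matches.

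Some libraries stood apart in their cell markers. The summed level of 6 neuronal markers was 234, 3394 and 200.4 CPM in SCI day 3 replicates 1, 2 and 3, against 4279, 3167 and 4362 CPM in sham, so replicates 1 and 3 held few neuronal transcripts. The chloride cotransporter gene Slc12a5 averaged 151 ± 206 CPM at SCI day 3 and 516 ± 73.9 CPM in sham, and Chat, of motor neurons, 10.9 ± 15.9 CPM at SCI day 3 and 39.7 ± 2.67 CPM in sham (SD, n = 3 each; edgeR adjusted p = 0.171 and 0.160). Erythrocyte markers summed to 9231 CPM in SCI day 7 replicate 1, against 252 to 887 CPM in sham, and muscle markers to 101 CPM in SCI day 7 replicate 2, with 8.59 CPM or less elsewhere. Sensory ganglion markers were highest in SCI day 14 replicates 2 and 1, at 829.5 and 457 CPM, and in SCI day 3 replicate 2, at 312 CPM. In bulk tissue, fewer cells of a type and less RNA per cell cannot be told apart.

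At day 3 after injury Ldha, Slc16a3 and Slc2a1 rose, by 4.64-fold, 6.48-fold and 2.18-fold. These 3 of the 10 genes passed an adjusted p of 0.05 in edgeR's quasi-likelihood test over 18714 genes. Of all genes tested, 6.7% were called in all and 5.5% were called higher. No member was called lower, where 1.2% of all genes were. Hk2, Pfkfb3 and Adm had values above all sham libraries in all 3 SCI day 3 libraries but missed the limit, and Slc2a3 lay below all sham libraries. The 6 genes above and the 1 below compare with 21.2% and 15.9% of all genes. An unadjusted p under 0.05 was reached by 7 of the 10 (35.3% of all genes), and 9 had a log2 fold change above 0 (51.9% of all genes). The median log2 fold change was 1.09 over the 10 genes and 0.03 over all genes tested. At day 7 no member was called (0.016% of all genes were), 8 had an unadjusted p under 0.05 (9.89% of all genes), and 8 lay above all sham libraries without overlap (13.9% of all genes). Their log2 fold change was above 0 in 9 of 10 (47.4% of all genes), with a median of 1.02, against -0.02 over all genes. At day 14 no member was called (0.016% of all genes) and 0 had an unadjusted p under 0.05 (7.4% of all genes), while Hk2, Ldha, Slc16a3 and Adm lay above all sham libraries (4 genes, with 11% of all genes doing so). The log2 fold change at day 14 was above 0 in 7 of 10 (51.1% of all genes), with a median of 0.18, against 0.01 over all genes. By DESeq2 the members called were 7, 6 and 0 at days 3, 7 and 14, and by limma voom with sample weights 7, 1 and 0. These tools called 30% and 33.3% of all genes at day 3 and 2.61% and 1.47% at day 7. The 7 members of each tool at day 3 included Slc2a3, called lower.

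The 3 calls of day 3 depended on single libraries. In 12 fits that each left out 1 library, Ldha was called in 6, Slc2a1 in 2 and Slc16a3 in 1. Without sham replicate 1, sham replicate 3, SCI day 3 replicate 1, SCI day 3 replicate 3, SCI day 7 replicate 2 or SCI day 14 replicate 3 no member was called, and 0.00522 to 0.0942% of all genes were. Without sham replicate 2, SCI day 7 replicate 1, SCI day 14 replicate 1 or SCI day 14 replicate 2 the count was 1, which was Ldha (2.74 to 3.92% of all genes). Without SCI day 3 replicate 2, the library of that day with the most neuronal transcripts, it was 7, with Slc2a3 called lower among them. That fit called 37.1% of all genes. Without SCI day 7 replicate 3 the count was 3, with Pfkfb3 in place of Slc16a3 (3.81% of all genes). With the 2 libraries low in neuronal transcripts left out, SCI day 3 was represented by replicate 2 alone, which was assumed to vary like the other groups. The log2 fold changes were then 1.17 for Ldha, 0.71 for Slc16a3 and 0.64 for Slc2a1 (edgeR adjusted p = 0.832, 0.919 and 0.900).

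**Figure D1:**
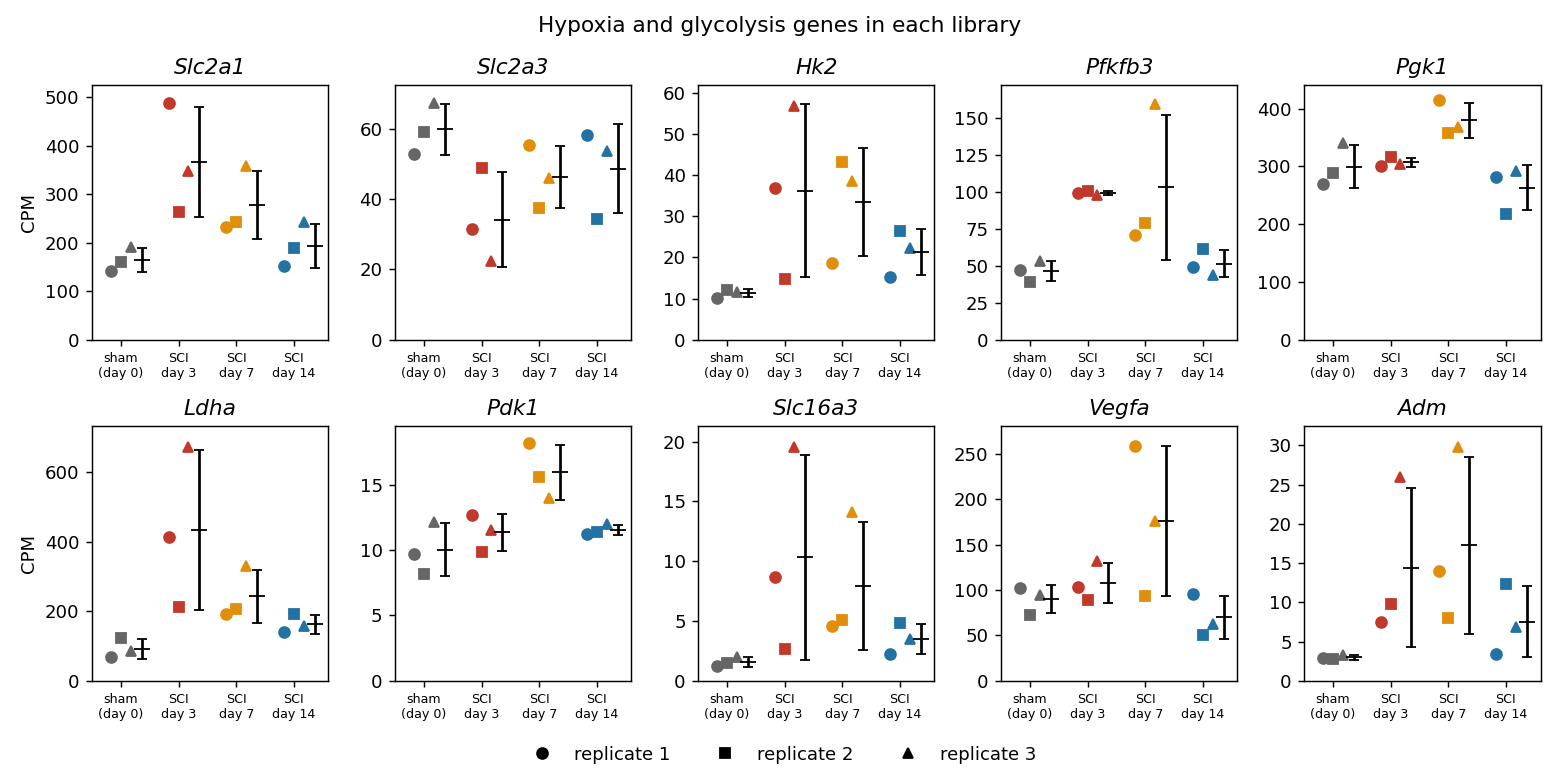
CPM of the 10 genes (y axis, from 0) in each library of sham, SCI day 3, day 7 and day 14 (x axis). Symbols are replicates, and bars give the group mean and SD (n = 3). Ldha, Hk2, Slc16a3 and Adm were higher in each of the 9 injured libraries than in any sham library.

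The glucose transporter genes differed in the sign of their change at day 3. Slc2a1 (ENSRNOG00000007284, chromosome 5) measured 141, 159 and 190.2 CPM in sham replicates 1, 2 and 3, then 487, 263 and 347 CPM at SCI day 3, 232, 242 and 357 CPM at day 7 and 151, 188 and 242 CPM at day 14. All libraries of days 3 and 7 were above the sham libraries, and those of day 14 overlapped with them. Its log2 fold change from sham was 1.12 ± 0.26 at day 3 (SE; edgeR adjusted p = 0.0392), 0.72 at day 7 (edgeR adjusted p = 0.395) and 0.20 at day 14 (edgeR adjusted p = 0.902). Slc2a3 (ENSRNOG00000008376, chromosome 4) measured 53.0, 59.3 and 67.5 CPM in sham, 31.5, 48.9 and 22.3 CPM at day 3, 55.4, 37.5 and 46.1 CPM at day 7 and 58.3, 34.2 and 53.7 CPM at day 14. It was lowest in SCI day 3 replicates 3 and 1, the libraries with few neuronal transcripts, whose part in this difference was not tested. Its log2 fold change was -0.85 ± 0.29 at day 3, -0.41 at day 7 and -0.34 at day 14 (edgeR adjusted p = 0.0800, 0.700 and 0.888). In FPKM, Slc2a1 made up 79.8, 80.0 and 80.7% of the summed level of both genes in sham, 95.8, 88.9 and 95.9% at day 3, 86.2, 90.6 and 92.0% at day 7 and 79.4, 89.1 and 87.0% at day 14. The share of Slc2a1 was above sham in all libraries but SCI day 14 replicate 1.

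Ldha, Pgk1 and Gapdh have processed pseudogenes in rodents, and how the authors' counting treated reads shared with such copies is not stated. Of the glycolytic enzymes, Hk2 and Pfkfb3 were higher in the injured libraries of days 3 and 7 and Pgk1 stood apart from them. Hk2 (ENSRNOG00000006116, chromosome 4) measured 10.2, 12.2 and 11.6 CPM in sham, 36.9, 14.8 and 57.0 CPM at day 3, 18.6, 43.4 and 38.7 CPM at day 7 and 15.3, 26.4 and 22.3 CPM at day 14. All 9 injured libraries lay above the sham libraries. Its log2 fold change was 1.66 ± 0.45 at day 3, 1.52 at day 7 and 0.87 at day 14 (edgeR adjusted p = 0.0526, 0.317 and 0.719). Hk1, the hexokinase of resting brain, gave the larger part of the pair's FPKM throughout, with Hk2 at 5.98, 6.30 and 5.35% in sham, 19.9, 7.63 and 28.4% at day 3, 8.38, 22.4 and 16.0% at day 7 and 7.56, 14.4 and 11.3% at day 14. Pfkfb3 (ENSRNOG00000018911, chromosome 17) measured 46.8, 39.3 and 52.9 CPM in sham, 99.5, 101 and 97.7 CPM at day 3, 70.6, 79.0 and 159.8 CPM at day 7 and 49.0, 61.5 and 43.5 CPM at day 14. The 3 libraries of day 3 agreed closely, including replicate 2 with its neuronal transcripts, and those of day 14 overlapped with sham. The log2 fold change of Pfkfb3 was 1.06 ± 0.28 at day 3, 1.11 at day 7 and 0.11 at day 14 (edgeR adjusted p = 0.0509, 0.251 and 0.941). Pgk1 (ENSRNOG00000058249, chromosome X) measured 269, 288 and 341 CPM in sham, 300.02, 316 and 304 CPM at day 3, 414, 357 and 368 CPM at day 7 and 281, 218 and 291 CPM at day 14. Its day 3 libraries lay within the sham range and its day 7 libraries above it. The log2 fold change of Pgk1 was 0.00079 ± 0.16 at day 3, with a sign that turned to -0.02 with DESeq2 size factors, 0.30 at day 7 and -0.23 at day 14 (edgeR adjusted p = 0.998, 0.579 and 0.857).

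At the pyruvate branch, the genes for making and exporting lactate rose at day 3. Ldha (ENSRNOG00000013009, chromosome 1) measured 67.1, 124 and 86.2 CPM in sham, 413, 214 and 674 CPM at day 3, 192, 206 and 330.0 CPM at day 7 and 139, 192 and 157 CPM at day 14. Every injured library lay above the highest sham library, which was sham replicate 2. Its log2 fold change was 2.21 ± 0.41 at day 3 (SE; edgeR adjusted p = 0.0332), 1.36 at day 7 (edgeR adjusted p = 0.316) and 0.78 at day 14 (edgeR adjusted p = 0.718). Ldhb encodes the subunit that favours the use of lactate, and in FPKM Ldha made up 6.37, 10.4 and 7.60% of both in sham, 56.4, 20.4 and 59.96% at day 3, 15.9, 19.3 and 26.3% at day 7 and 11.95, 20.5 and 14.0% at day 14. Ldha exceeded Ldhb in SCI day 3 replicates 1 and 3 alone among the 12 libraries, those low in neuronal transcripts, where Ldhb was at 163 and 230.3 CPM, against 505 to 549 CPM in sham.

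Slc16a3 (ENSRNOG00000036677, chromosome 10) was the scarcest of the 10 genes by FPKM in sham, and measured 1.25, 1.47 and 2.01 CPM in sham, 8.71, 2.68 and 19.6 CPM at day 3, 4.61, 5.08 and 14.1 CPM at day 7 and 2.28, 4.79 and 3.49 CPM at day 14. All injured libraries were above sham, and the day 3 libraries spread the most. Its log2 fold change was 2.70 ± 0.70 at day 3 (SE; edgeR adjusted p = 0.0477), 2.28 at day 7 (edgeR adjusted p = 0.321) and 1.12 at day 14 (edgeR adjusted p = 0.809). The transporter gene Slc16a1 (MCT1) remained far above it in FPKM, and the share of Slc16a3 in the pair was at most 2.96%, in SCI day 3 replicate 3, against 0.416 to 0.720% in sham. Pdk1 (ENSRNOG00000001517, chromosome 3) measured 9.71, 8.17 and 12.2 CPM in sham, 12.7, 9.85 and 11.5 CPM at day 3, 18.2, 15.6 and 14.0 CPM at day 7 and 11.2, 11.4 and 11.97 CPM at day 14. Its day 7 libraries were the ones above sham without overlap. The log2 fold change of Pdk1 was 0.14 at day 3, 0.63 at day 7 and 0.16 at day 14 (edgeR adjusted p = 0.619, 0.333 and 0.899).

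**Figure D2:**
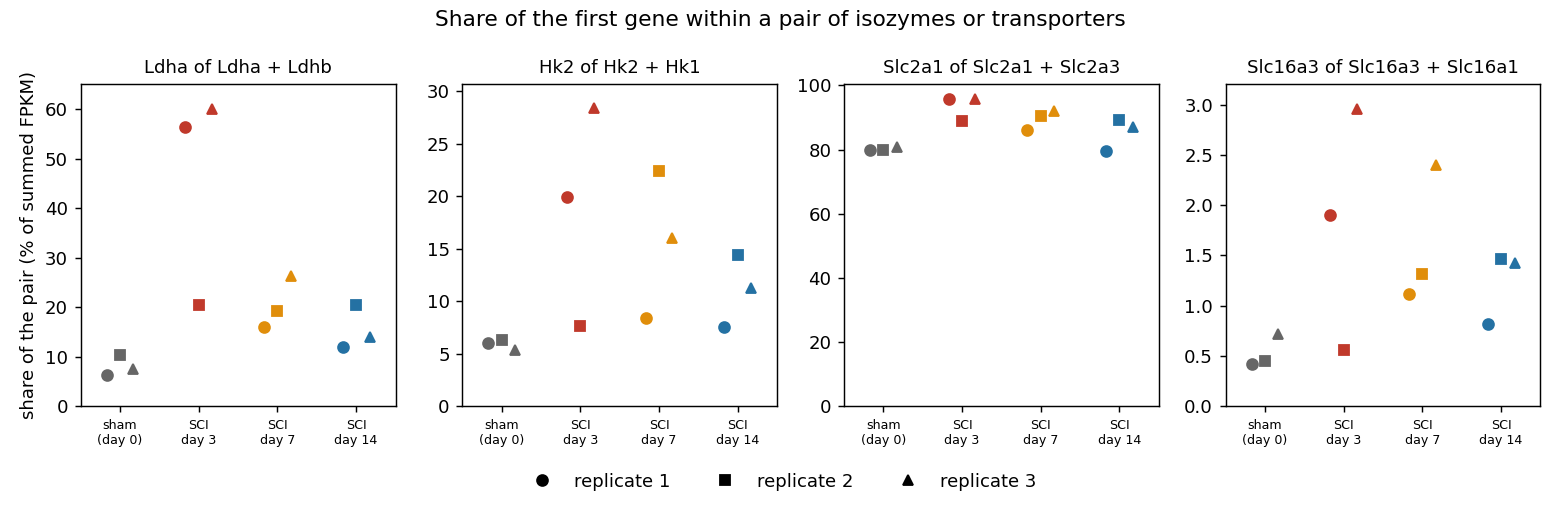
Share (%) of the first gene in the summed FPKM of a pair (y axis, from 0) in each library of sham, SCI day 3, day 7 and day 14 (x axis). Symbols are replicates. Ldha passed 50% in SCI day 3 replicates 1 and 3, at 56.4 and 59.96%, while Slc16a3 stayed at 2.96% or less.

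The secreted factors differed from each other in pattern. Vegfa (ENSRNOG00000019598, chromosome 9) measured 102, 72.6 and 95.1 CPM in sham, 103, 88.8 and 132 CPM at day 3, 259, 93.4 and 176 CPM at day 7 and 96.0, 50.9 and 62.8 CPM at day 14. The groups overlapped with sham on every day. Its log2 fold change was 0.23 at day 3, 0.94 at day 7 and -0.40 at day 14 (edgeR adjusted p = 0.683, 0.446 and 0.891). SCI day 7 replicate 1, the highest library for Vegfa, was also the one rich in erythrocyte transcripts, whose part was not tested. Adm (ENSRNOG00000027030, chromosome 1) measured 2.93, 2.75 and 3.32 CPM in sham, 7.46, 9.79 and 26.0 CPM at day 3, 14.0, 7.96 and 29.9 CPM at day 7 and 3.40, 12.4 and 6.81 CPM at day 14. All 9 injured libraries lay above sham, SCI day 14 replicate 1 only just. The log2 fold change of Adm was 2.25 ± 0.65 at day 3, 2.49 at day 7 and 1.29 at day 14 (edgeR adjusted p = 0.0579, 0.263 and 0.697).

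Hk2, Ldha, Slc16a3 and Adm were thus the 4 members above sham in all 9 injured libraries, as were 4.37% of all genes. When all 9 injured libraries were set against sham, a contrast added after the values were seen, no member was called by edgeR (0.0481% of all genes were), and 7 had an unadjusted p under 0.05 (19.1% of all genes). The log2 fold changes there were 1.45 for Ldha, 1.35 for Hk2, 2.03 for Slc16a3 and 2.01 for Adm (edgeR adjusted p = 0.138, 0.165, 0.172 and 0.164).

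**Figure D3:**
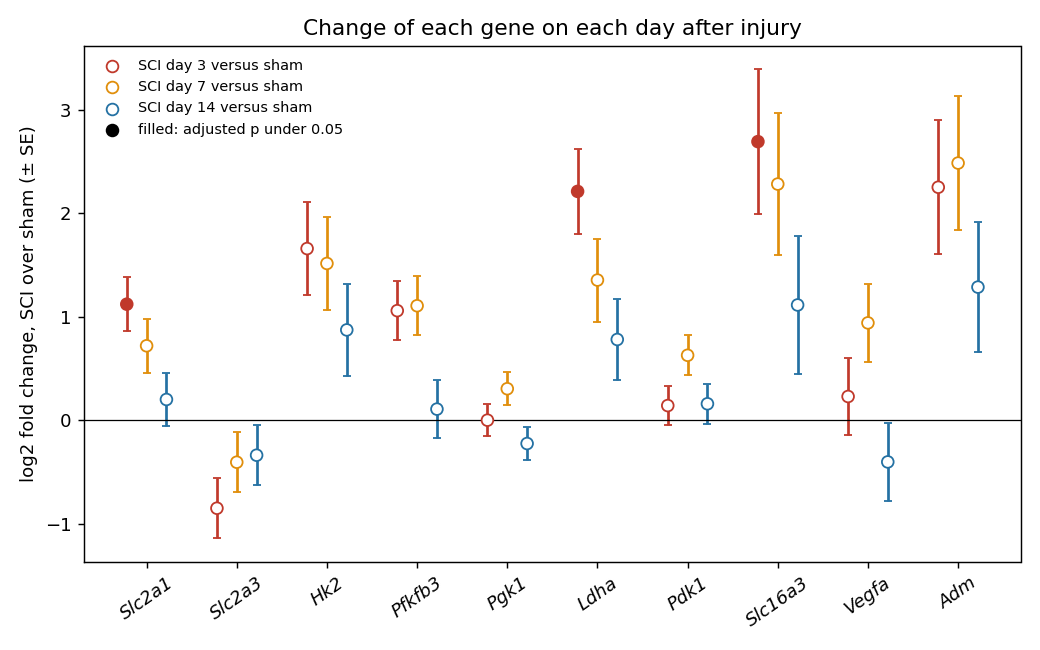
Log2 fold change over sham with its SE (y axis) for each of the 10 genes (x axis) at SCI day 3, day 7 and day 14. Filled points passed an edgeR adjusted p of 0.05, which were Slc2a1, Ldha and Slc16a3 at day 3. Slc2a3 was the one gene below 0 at day 3, at -0.85.

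Between the injured days no member was called by edgeR, and neither was any other gene (0% in each of the 3 comparisons). DESeq2 and voom also called 0 members for day 7 against day 3 and for day 14 against day 7. Between day 7 and day 3 the groups of Pgk1 and Pdk1 did not overlap and were higher at day 7 (2 genes, and 6% of all genes), with log2 differences of 0.30 and 0.49 (edgeR adjusted p = 0.357 and 0.323). Between day 14 and day 7, 9 of the 10 genes had a difference below 0 (51.2% of all genes had one above 0), with a median of -0.61 over the members, and Pfkfb3, Pgk1 and Pdk1 lay lower at day 14 without overlap (4.26% of all genes did). The differences were -0.9999 for Pfkfb3, -0.53 for Pgk1, -0.47 for Pdk1 and -1.34 for Vegfa, with unadjusted p under 0.05 for these 4 (3.67% of all genes) and edgeR adjusted p = 1 for each. Between day 14 and day 3, Slc2a1, Pfkfb3, Pgk1 and Ldha lay lower at day 14 without overlap (9.62% of all genes did). The differences were -0.92 for Slc2a1, -0.95 for Pfkfb3, -0.23 for Pgk1 and -1.43 for Ldha (edgeR adjusted p = 0.194, 0.199, 0.430 and 0.193). Of the members, 4 had an unadjusted p under 0.05 (17.9% of all genes), Slc2a1, Pfkfb3, Ldha and Slc16a3, the last at -1.58 (edgeR adjusted p = 0.262). By DESeq2 Slc2a1, Pfkfb3 and Ldha were called in that comparison, where it called 6.4% of all genes. Between day 7 and day 3, 1 member had an unadjusted p under 0.05, Pdk1 (14.8% of all genes). Over the 4 groups together no member was called by edgeR (0.0427% of all genes were), and 9 had an unadjusted p under 0.05 (19.5% of all genes), while DESeq2 called 9 (15% of all genes) and voom 5 (16.7% of all genes).

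By mean level per group, the order differed between the genes. Slc2a1, Hk2, Ldha and Slc16a3 had their highest mean at day 3, and Pfkfb3, Pgk1, Pdk1, Vegfa and Adm at day 7, while Slc2a3 had its highest mean in sham. The libraries of days 3 and 7 overlapped for each gene but Pgk1 and Pdk1. No member was called by edgeR between these days, so their order is not resolved for any of the 10. In sham the FPKM was 146 ± 18.2 for Pgk1, 59.2 ± 9.08 for Slc2a1, 32.1 ± 10.1 for Ldha, 23.0 ± 3.91 for Vegfa, 14.6 ± 1.78 for Slc2a3 and 9.58 ± 1.41 for Pfkfb3 (SD, n = 3 each). It was 6.10 ± 1.24 for Pdk1, 2.94 ± 0.269 for Hk2, 2.05 ± 0.197 for Adm and 0.181 ± 0.0451 for Slc16a3. Of neighbours in this order, only Ldha and Vegfa overlapped between libraries in sham, with 23.3 FPKM as the lowest value of Ldha and 26.1 FPKM as the highest of Vegfa. At day 3 Ldha was at 143, 74.6 and 235 FPKM in replicates 1, 2 and 3 and Pgk1 at 146, 155 and 149 FPKM, so that Ldha exceeded Pgk1 in replicate 3 alone.

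Markers of several cell types also varied between the libraries. Endothelial markers (5 of 6 matched) summed to 1275, 436 and 772 CPM at SCI day 3, against 209, 275 and 179 CPM in sham. Among the day 3 libraries this was the order of Slc2a1, highest in replicate 1 and lowest in replicate 2. The orders were also the same at day 14, but not in sham or at day 7. In sham Slc2a1 was highest in replicate 3, where the endothelial markers were lowest. The endothelial gene Vwf averaged 490.1 ± 293 CPM at SCI day 3 and 131 ± 33.3 CPM in sham, which is 1.85 in log2 terms (edgeR adjusted p = 0.0338). The sum of endothelial markers was 464, 404 and 569 CPM at day 7 and 315, 411 and 419 CPM at day 14, above sham in all libraries. Microglia and macrophage markers (6 matched) summed to 191, 135 and 172 CPM in sham, 771, 189 and 207 CPM at day 3, 547, 938 and 447 CPM at day 7 and 206, 770.1 and 593 CPM at day 14. The lysosomal gene Cd68 stood 2.92 log2 units above sham at day 3 (edgeR adjusted p = 0.0909). SCI day 3 replicate 3, the library highest in Ldha, Hk2 and Slc16a3, was thus not the highest of its day in this list.

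Schwann cell markers (4 matched) summed to 4632, 39003 and 6087 CPM in sham, 11017, 24702 and 42600 CPM at day 3, 5128, 1655 and 14860 CPM at day 7 and 21735, 21227 and 11338 CPM at day 14. Sham replicate 2, SCI day 3 replicate 3 and SCI day 7 replicate 3 were each the highest of their group both in this list and in Ldha. At day 14 this did not hold, as replicate 1 was the highest in the list, at 21735 CPM, and the lowest in Ldha, at 139 CPM. SCI day 7 replicate 2, the lowest library of all in the list, had Ldha at 206 CPM, above all sham libraries. Neutrophil markers (4 matched) summed to 0.929, 38.7 and 0 CPM in sham, with 33.8 to 51.8 CPM at day 3. The gene Aldh1l1 of astrocytes fell at day 3, with -1.86 as its log2 fold change (edgeR adjusted p = 0.00534). The parts of endothelial, myeloid, Schwann and astrocyte transcripts in these differences were not tested. Averaged over the 10 genes, the log2 distance from the sham mean was 1.01, 0.58 and 1.36 in SCI day 3 replicates 1, 2 and 3, 0.96, 0.80 and 1.45 at day 7 and 0.20, 0.48 and 0.42 at day 14. Of the 10 genes, 6 to 8 lay above every sham library in a day 3 library, 8 or 9 in a day 7 library and 4 or 5 in a day 14 library. The share of all genes doing so in a single library was not computed, so these counts have no background to be read against.

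**Figure D4:**
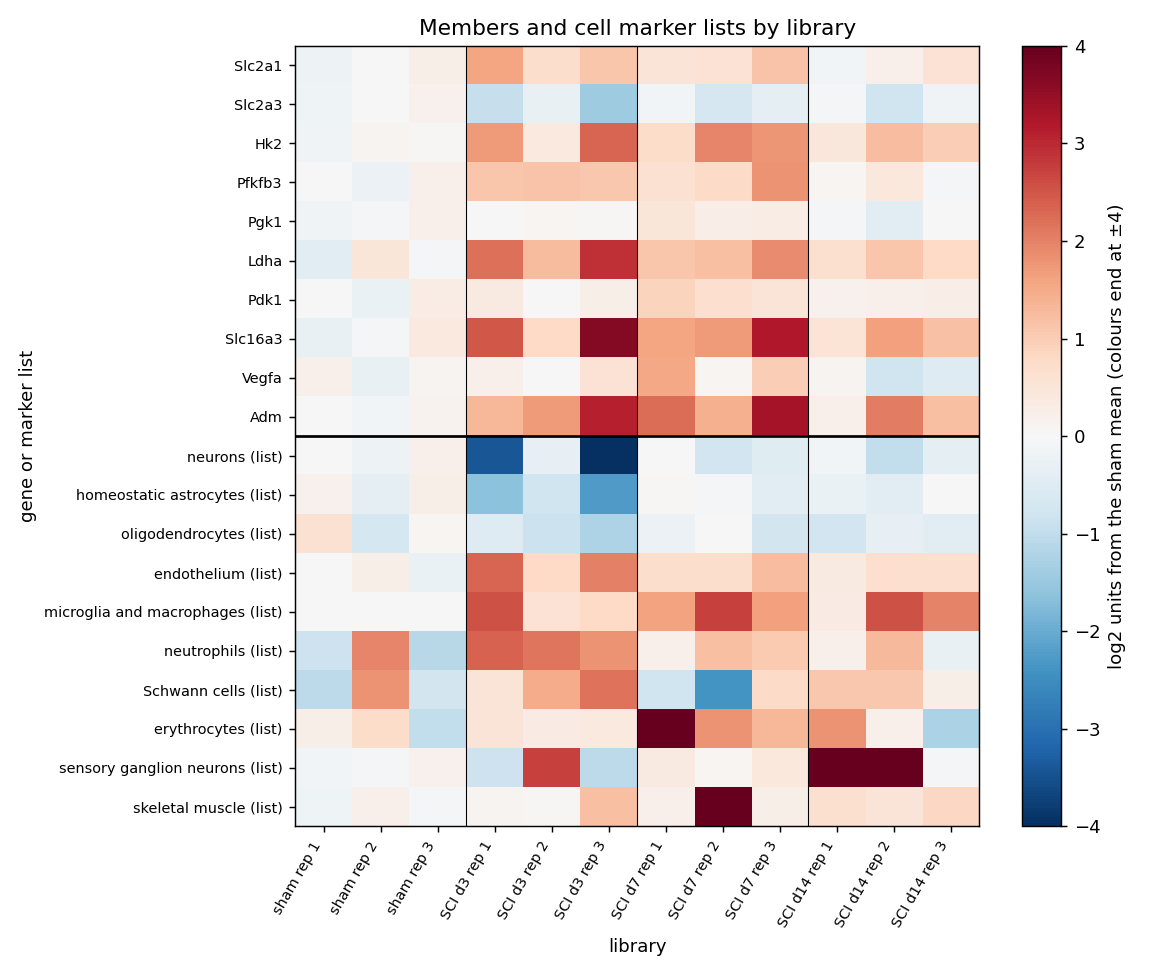
Log2 distance from the sham mean (colour, ending at ±4) of the 10 genes and of cell marker lists (rows) in the 12 libraries (columns). SCI day 3 replicates 1 and 3 are low in neuronal markers and high in Ldha, Hk2 and Slc16a3. The SCI day 7 libraries are also above sham in these genes. Their neuronal markers summed to 2846 to 4197 CPM, against 3167 to 4362 CPM in sham. In the mean log2 distance plotted, these markers were at -0.01, -0.78 and -0.49 in replicates 1, 2 and 3, against -0.19 to 0.20 in sham. The part of neuronal transcripts was not tested.

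None of the other glycolytic enzymes was called by edgeR. At day 3, 2 of these 14 had a log2 fold change above 0 (51.9% of all genes), 6 had an unadjusted p under 0.05 (35.3% of all genes), and their median was -0.37, against 0.03 over all genes. The shares of all genes with an unadjusted p under 0.05 were 35.3% at day 3, 9.89% at day 7 and 7.4% at day 14. Aldoc, the aldolase of astrocytes, had the smallest p, with 219, 874 and 178 CPM at SCI day 3, against 1367, 1152 and 1602 CPM in sham (log2 fold change -1.74; edgeR adjusted p = 0.0635). Gapdh measured 977, 1041 and 929 CPM at SCI day 3, against 1003, 1177 and 1261 CPM in sham (log2 fold change -0.26; edgeR adjusted p = 0.275). At day 7 the median was 0.03, and 2 genes had an unadjusted p under 0.05, of which Gapdh was not one. Pfkl, a phosphofructokinase subunit, had the smallest p, at 0.64, and Gapdh was at 0.21 (edgeR adjusted p = 0.251 and 0.733). At day 14 it was -0.19, with 0 genes at an unadjusted p under 0.05, Gapdh at -0.15 and Pgam1, the phosphoglycerate mutase, at -0.32 (edgeR adjusted p = 0.898 and 0.820). Of 13 other genes of pyruvate fate and fuel transport 0 were called by edgeR at day 3 and 6 had an unadjusted p under 0.05, with a median of -0.31 and the smallest p for Pfkfb2, a relative of Pfkfb3, at -0.78 (edgeR adjusted p = 0.0509). At days 7 and 14 again 0 were called and 1 had an unadjusted p under 0.05 on each day, the medians were -0.12 and -0.13, with the smallest p for Slc16a1 at 0.57 and for Pdk4, a relative of Pdk1, at 1.63 (edgeR adjusted p = 0.423 and 0.618).

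The gene for 1 of the HIF subunits, Hif1a, rose at day 3. Hif1a measured 293, 153 and 235 CPM at SCI day 3, against 111, 88.1 and 103 CPM in sham, with no overlap (log2 fold change 1.13 ± 0.26; edgeR adjusted p = 0.0392). It was at 130, 228 and 242 CPM at day 7 and 113, 109.6 and 108 CPM at day 14 (log2 fold changes 0.93 and 0.09; edgeR adjusted p = 0.289 and 0.949). HIF protein is controlled largely by its breakdown, which RNA does not show. Of 9 genes of oxygen sensing, edgeR called 1 higher at day 3 (5.5% of all genes), Hif1a, and 1 lower (1.2% of all genes), Egln3. This prolyl hydroxylase gene, itself a known HIF target, had -0.85 as its log2 fold change (edgeR adjusted p = 0.0476). At day 3, 4 genes of the list lay above all sham libraries (21.2% of all genes) and 1 below them (15.9% of all genes). The median of the list was 0.25 at day 3, 0.14 at day 7 and 0.11 at day 14. No gene of it was called by edgeR at days 7 and 14, with 1 and 0 at an unadjusted p under 0.05, and Hif3a had the smallest p at day 14, at 1.58 (edgeR adjusted p = 0.758).

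Of 19 other HIF targets edgeR called 2 higher at day 3 (5.5% of all genes) and 0 lower (1.2% of all genes). Their median was 0.47 and 14 were above 0 (51.9% of all genes). Hmox1, the heme-degrading enzyme, measured 211, 44.8 and 216 CPM at SCI day 3, against 6.94, 12.5 and 8.78 CPM in sham (log2 fold change 4.04; edgeR adjusted p = 0.0338). Lox, which cross-links collagen, rose by 2.86 log2 units (edgeR adjusted p = 0.0398). Both genes are also known to answer signals other than HIF, such as heme for Hmox1 and TGF-beta for Lox. Their day 3 levels were lowest in replicate 2, the library with most neuronal transcripts. At day 7 the median was 0.34 with no gene called by edgeR and 6 at an unadjusted p under 0.05, the smallest p being that of Hmox1 at 3.91 (edgeR adjusted p = 0.217), and at day 14 it was 0.20, with no gene called, 4 at an unadjusted p under 0.05 and Lox at 2.96 (edgeR adjusted p = 0.502).

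On the receiving side, 12 ligands and receptors of the VEGF and adrenomedullin systems had a median of 0.57 at day 3, with 1 called, a share near the 6.7% of all genes. Flt1, a VEGF receptor of endothelium, rose by 1.12 on the log2 scale, with 194, 118 and 154 CPM at SCI day 3, against 76.6, 66.2 and 64.9 CPM in sham (edgeR adjusted p = 0.0370). It followed the order of the endothelial markers among the day 3 libraries, whose part was not tested. At days 7 and 14 no gene of the list was called by edgeR and 3 and 1 had an unadjusted p under 0.05, with medians of 0.33 and 0.15 and the smallest p for the co-receptors Nrp1, at 0.62, and Nrp2, at 0.62 (edgeR adjusted p = 0.333 and 0.654). The 5 genes called on these lists at day 3 were all lost when any of sham replicate 1, sham replicate 3, SCI day 3 replicate 1, SCI day 3 replicate 3, SCI day 7 replicate 2 or SCI day 14 replicate 3 was left out. Such fits called 0.00522 to 0.0942% of all genes, so the loss is not particular to the 5. When the 2 libraries low in neuronal transcripts were left out, SCI day 3 was replicate 2 alone, a fit that cannot decide calls. The log2 fold changes of the 5 genes were then between -0.54 and 2.21.

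**Figure D5:**
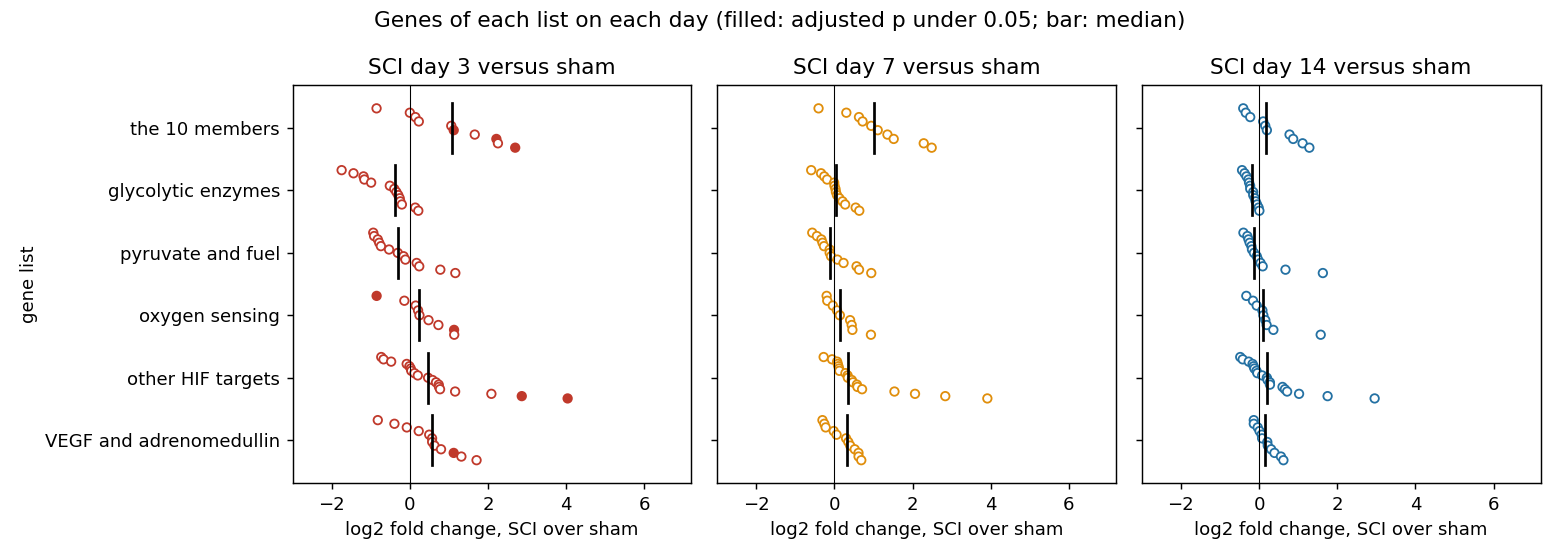
Log2 fold change over sham (x axis) of each gene of the 10 members and of 5 related lists (rows) at SCI day 3, day 7 and day 14 (panels). Filled points passed an edgeR adjusted p of 0.05 and bars are medians. At day 3 the median of the members was 1.09 and that of the other glycolytic enzymes -0.37.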

How the data were processed

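Lumbar cord RNA of 12 samples was prepared with a column kit and a SMARTer mRNA-Seq library kit, per the labels' protocols. The authors deposited 1 table with a read count and an FPKM per gene and sample. The counts are whole numbers with no normalization as deposited, and no aligner, counter or annotation release is given in the sources used here. The submitters' processing notes name mouse genome builds, while the gene identifiers and the species label are those of rat, so no coordinate of the table is printed. The deposited FPKM are the authors' counts scaled for depth and gene length, and within a gene they were proportional to CPM within 0.831%, as checked in 9502 genes whose counts exceeded 500 throughout. Strand use in counting is not stated.

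Counts were tested with edgeR 4.0.16 (R 4.3.3): TMM factors, the package's filter on low counts by group (4812 genes removed, 18714 kept, all 10 members among them), 1 mean per group over 12 libraries with 8 residual degrees of freedom, quasi-likelihood F tests and Benjamini-Hochberg adjustment over all genes tested, with a limit of 0.05. The common biological coefficient of variation was 0.432. CPM use library totals without TMM. The SE is the log2 fold change divided by the root of F, so it restates the test. An exact permutation test of 3 against 3 samples cannot go below 0.1 and was not used. No pair of libraries agreed within sampling noise, the closest, sham replicates 1 and 3, having a chi-square of 60.3 per gene. The edgeR, DESeq2 1.42.0 and voom (limma 3.58.1) steps were tested on simulated data.

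Members and lists were chosen with earlier results of these data known. The genes named are the 10 members, Hif1a, Gapdh and 5 markers, and of each pathway list and comparison with sham up to 3 called members with the smallest p, or the 1 with the smallest p where none passed. Ldhb, Hk1 and Slc16a1 were added as partners of members, and the contrast of all injured libraries with sham and 3 sets of left-out libraries were added after the values were seen. A pair of list genes is not reported here and was left out of the lists' counts and medians. The symbols Ramp2, Cldn5, Hba-a1 and Hbb had no matching row tested. Alternatives were other tools, scalings, filters, a replicate block, fits of the compared groups alone and libraries left out.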

Additional observations from a re-analysis of the deposited data

Results flagged for a closer look

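Pgk1 stood on opposite sides of the sham mean of 299 CPM in different injured groups. The SCI day 14 libraries, at 281, 218 and 291 CPM, were all below it, and the SCI day 7 libraries, at 414, 357 and 368 CPM, were all above it, a difference of -0.54 in mean log2 CPM. The SCI day 3 libraries, at 300.02, 316 and 304 CPM, were also above it, and SCI day 14 differed from them by -0.23. The edgeR tests of these differences gave an adjusted p of 1 for day 14 against day 7 and 0.430 for day 14 against day 3. SCI day 3 replicate 1 lay less than 1 CPM above the sham mean.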

How the results depend on the processing

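The number of members called at SCI day 3 against sham, 3 by edgeR where 6.7% of all genes were called, is given here with the share of all genes called in brackets. It was 7 by DESeq2 (30%), 7 by voom (33.3%), 5 with library size and no TMM (7.45%), 2 with DESeq2 size factors (5.7%), 2 with no filter (3.12%), 5 with a filter of 1 CPM (11%) and 0 in a fit of only the groups compared (0.00559%). Both counts of 7 included Slc2a3, called lower. With the replicate block the number was 0 (0.0427%). Whether the replicate numbers pair the samples is not stated. Of 18 same-number pairs 6 had deviations correlated over 0.1 (r from -0.34 to 0.25), and 3 of 12 libraries correlated best with their own number. With 3 libraries per group these correlations cannot decide whether samples are paired. Each of 3 further sets of left-out libraries left 1 library in a group, so its counts are not given. Without the libraries low in neuronal transcripts, SCI day 3 was replicate 2 alone. Leaving out those rich in erythrocyte or muscle transcripts left SCI day 7 as replicate 3 alone. The libraries with sensory ganglion transcripts were SCI day 3 replicate 2 and SCI day 14 replicates 1 and 2, which left SCI day 14 as replicate 3 alone. Leaving out 1 library at a time gave 0 to 7 at day 3 against sham, 0 to 0 at days 7 and 14 against sham and for day 14 against day 7, 0 to 1 for day 7 against day 3, 0 to 5 for day 14 against day 3 and 0 to 6 over the 4 groups. The upper values 7, 1, 5 and 6 came without SCI day 3 replicate 2. That fit called 37.1, 18.9, 22.8 and 22.7% of all genes. Slc2a3, called lower, was again among the 7. DESeq2 called 6 members at day 7 against sham (2.61%), 3 for day 14 against day 3 (6.4%) and 9 over the 4 groups (15%), and voom called 1 at day 7 (1.47%) and 5 over the 4 groups (16.7%). Outside the 3 sets of left-out libraries, the other counts were 0, as in the fit reported. None of the causes was tested.

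Signs turned mostly for values near 0, but not only for those. Without the sensory ganglion libraries, SCI day 14 was replicate 3 alone. Pgk1 at day 3 against sham was -0.017 by DESeq2, -0.055 by voom, -0.020 with DESeq2 size factors, -0.0076 with no filter, -0.013 with a filter of 1 CPM and -0.012 without the sensory ganglion libraries, and -0.056 to 0.10 with 1 library left out. Pfkfb3 at day 14 against sham was -0.040 by voom, -0.17 without the sensory ganglion libraries and -0.057 to 0.23 with 1 library left out. Pfkfb3 at day 7 against day 3 was -0.057 by voom, -0.0021 with the replicate block and -0.41 to 0.24 with 1 library left out. Pdk1 at day 14 against day 3 was -0.024 by voom, -0.068 without the sensory ganglion libraries and -0.080 to 0.077 with 1 library left out. Without the libraries low in neuronal transcripts, SCI day 3 was replicate 2 alone. The day 3 values against sham were then -0.075 for Pdk1 and -0.070 for Vegfa, against 0.14 and 0.23 in the fit reported. Those of day 7 against day 3 were 0.080 for Slc2a1, -0.064 for Slc2a3, 1.17 for Hk2, 0.19 for Ldha and 1.57 for Slc16a3. The fit reported gave -0.40, 0.45, -0.14, -0.86 and -0.41. Day 14 against day 3 was 0.53 for Hk2 and 0.40 for Slc16a3, against -0.79 and -1.58 in the fit reported. Without the libraries rich in erythrocyte or muscle transcripts, SCI day 7 was replicate 3 alone. Day 7 against day 3 was then 0.073 for Hk2 and 0.42 for Slc16a3. With 1 library left out, day 7 against day 3 ranged over -0.52 to 0.39 for Hk2, -1.12 to 0.51 for Slc16a3 and -0.41 to 1.03 for Adm, and day 14 against day 7 over -0.10 to 0.25 for Slc2a3. Depth limits Slc16a3 most, with 81 to 131 counts per sham library.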
